A study of Mus musculus with 12 samples.

Results

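The mouse genome encodes a large set of secreted and membrane-bound metalloproteinases that cut the extracellular matrix, and the genes described here are its matrix metalloproteinases (Mmp), its ADAMTS proteinases (Adamts), the ADAMTS-like proteins that lack the proteinase domain (Adamtsl) and the 4 tissue inhibitors of metalloproteinases (Timp). All rows of the deposited matrix with such a symbol were taken, whatever their values, which gave 51 of the 28244 genes listed: 23 Mmp, 19 Adamts, 5 Adamtsl and 4 Timp genes. RNA was sequenced from pellets of progenitors that had been isolated from the cartilaginous heads and condyles of femurs and tibiae of C57/BL6 pups aged 5 or 6 days, the strain that the labels give. All pellets were kept in chondrogenic medium for 7 days and, after that, in osteogenic medium. The 12 libraries fall into 4 groups of 3 replicates, harvested at day 7 (D7, the end of the chondrogenic phase), day 8 (D8, 1 day of osteogenic medium), day 10 (D10, 3 days) and day 28 (D28, 21 days). No sequenced pellet was kept in chondrogenic medium beyond D7, so time in culture and the change of medium cannot be told apart in these libraries. The study's control pellets, kept in a single medium, were assessed by staining and marker genes and are not among them. The labels do not say whether replicates came from separate animals or cell preparations, so the p-values measure the spread between these libraries, which may be technical. The cells were never sorted, and in such bulk RNA a smaller number of cells of one type and less RNA per cell cannot be told apart.

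Mmp enzymes are made as inactive precursors, carry a catalytic zinc ion and act on collagens, proteoglycans and other matrix proteins. In the growth plate MMP13 is the collagenase of hypertrophic cartilage, MMP14 is a membrane-anchored activator of MMP2, and MMP9 is best known from osteoclasts and other cells of the marrow. ADAMTS4 and ADAMTS5 are the main aggrecanases, ADAMTS2, ADAMTS3 and ADAMTS14 remove the amino-terminal propeptide of fibrillar procollagens, and the TIMP proteins bind and block the active sites of these enzymes, with TIMP3 acting on ADAMTS enzymes as well as on Mmp enzymes.

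Of the 23 Mmp genes, 10 lie side by side on chromosome 9 (build GRCm38, chr9:7272514-7699585, 427 kb), with no other protein-coding gene between them. The order is Mmp13, Mmp12, Mmp1b, Mmp3, Mmp1a, Mmp10, Mmp8, Mmp27, Mmp20 and Mmp7, and all are on the forward strand except Mmp1b. Promoter sequences of this cluster are shown because its members went separate ways in these pellets, and because promoters of this family are known for an element bound by AP-1, the dimer of Fos and Jun proteins. The letters TGANTCA, searched on both strands in the 300 bases from 250 before to 50 after each RefSeq transcription start, occurred in 7.81% of 32851 promoters of the genome, in 8 of 39 promoters of members (20.5%) and in 8 of the 12 promoters of the cluster (66.7%). All 8 member promoters that held them belong to the cluster, 1 each for Mmp13, Mmp12, Mmp1b, Mmp3, Mmp1a, Mmp10, Mmp20 and Mmp7, and Mmp12 and Mmp7 each have a second listed start without them. Below are the 120 bases from 100 before to 20 after the start for 5 of its genes, from RefSeq on GRCm38.p6, forward strand, 5′ to 3′, with TGANTCA in capitals.

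Mmp13 (chr9:7272414-7272533): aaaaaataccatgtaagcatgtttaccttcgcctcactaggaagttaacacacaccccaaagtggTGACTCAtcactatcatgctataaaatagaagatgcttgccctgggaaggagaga

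Mmp12 (chr9:7347274-7347393): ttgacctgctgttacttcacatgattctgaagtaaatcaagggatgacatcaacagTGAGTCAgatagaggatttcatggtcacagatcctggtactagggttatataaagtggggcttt

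Mmp3 (chr9:7445722-7445841): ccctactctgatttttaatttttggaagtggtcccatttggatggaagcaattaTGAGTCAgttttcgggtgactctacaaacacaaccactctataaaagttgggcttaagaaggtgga

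Mmp10 (chr9:7502242-7502361): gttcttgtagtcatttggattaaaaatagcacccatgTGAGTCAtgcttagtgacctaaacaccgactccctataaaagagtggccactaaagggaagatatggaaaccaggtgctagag

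Mmp8 (chr9:7558329-7558448): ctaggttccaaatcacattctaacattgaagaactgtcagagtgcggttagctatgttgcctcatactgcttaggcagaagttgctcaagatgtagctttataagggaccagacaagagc

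The match begins 35 bases before the start in Mmp13, 44 in Mmp12, 46 in Mmp3 and 63 in Mmp10. The 300 bases of Mmp8 hold no such letters, which says nothing about which factors act on it. A match is a description of the letters and not of binding, which was not measured.

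The values are log2 values of read counts that the authors had equalized between libraries, with 1 added before the logarithm, so differences between time points are log2 fold changes on that scale and understate the change of genes with few reads. Sorted by size, the values of the libraries nearly coincide (median spread 0.00284 above a log2 value of 5), so a gene's value follows its rank within its library. Steps between ranks are large among the most abundant genes, where Col2a1 stood only at 20.92 or 19.87. Folds and sums are thus those of equalized values and not ratios of counts. A gene was tested if it reached a log2 value of 1 in at least 3 libraries, and it was called when its absolute log2 fold change was at least 1 and its Benjamini-Hochberg adjusted p, over all 17674 genes tested, was under 0.05 in limma. Original library totals are not kept in such values, but the lowest levels follow single reads, and from these the relative depth ranged from 0.730 to 1.31, with a single read at log2 values between 0.50 and 1.81. At most 3 reads corresponds to a log2 value of at most 2.87, and folds against a group in which all libraries lie at or under 3 reads are lower bounds computed with all values raised to that level. These limits cover counting error only. Among marker genes fixed for the check of the label, the summed level of 8 chondrocyte genes was between 20.3 and 21.4 and that of 8 osteoblast genes between 18.4 and 19.4 on the log2 scale in every library. The chondrocyte sum is set mostly by Col2a1, which holds the top value of the scale (20.92) except at D10 (19.87), and single markers moved. At D10 against D7 none of the 8 chondrocyte genes was called higher in limma (0 at an unadjusted p under 0.05) and 5 were lower, among them Matn3, a cartilage matrilin (20.7-fold). Of the 8 osteoblast genes 3 were higher there (Bglap 9.5-fold, Dmp1 8.98-fold and Spp1 4.44-fold) and 4 lower, among them Ibsp, a bone sialoprotein (81.1-fold).

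Of the 51 genes, 45 were tested. Mmp1a, Mmp7 and Adamts19 were listed at 0 in all 12 libraries. Mmp1b reached 1.81 in D10 replicate 1 only and Mmp21 0.58 in D28 replicate 1 only, which is a single read in each. Mmp20, the enamel enzyme enamelysin, stood at 1.06, 1.12 and 0.66 in the D8 libraries, 1 read in each, and at 0 elsewhere. Among the 45 tested genes, 34 were called in at least 1 of the 5 comparisons, which share libraries, beside 38.2% of all genes tested.

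**Figure D1:**
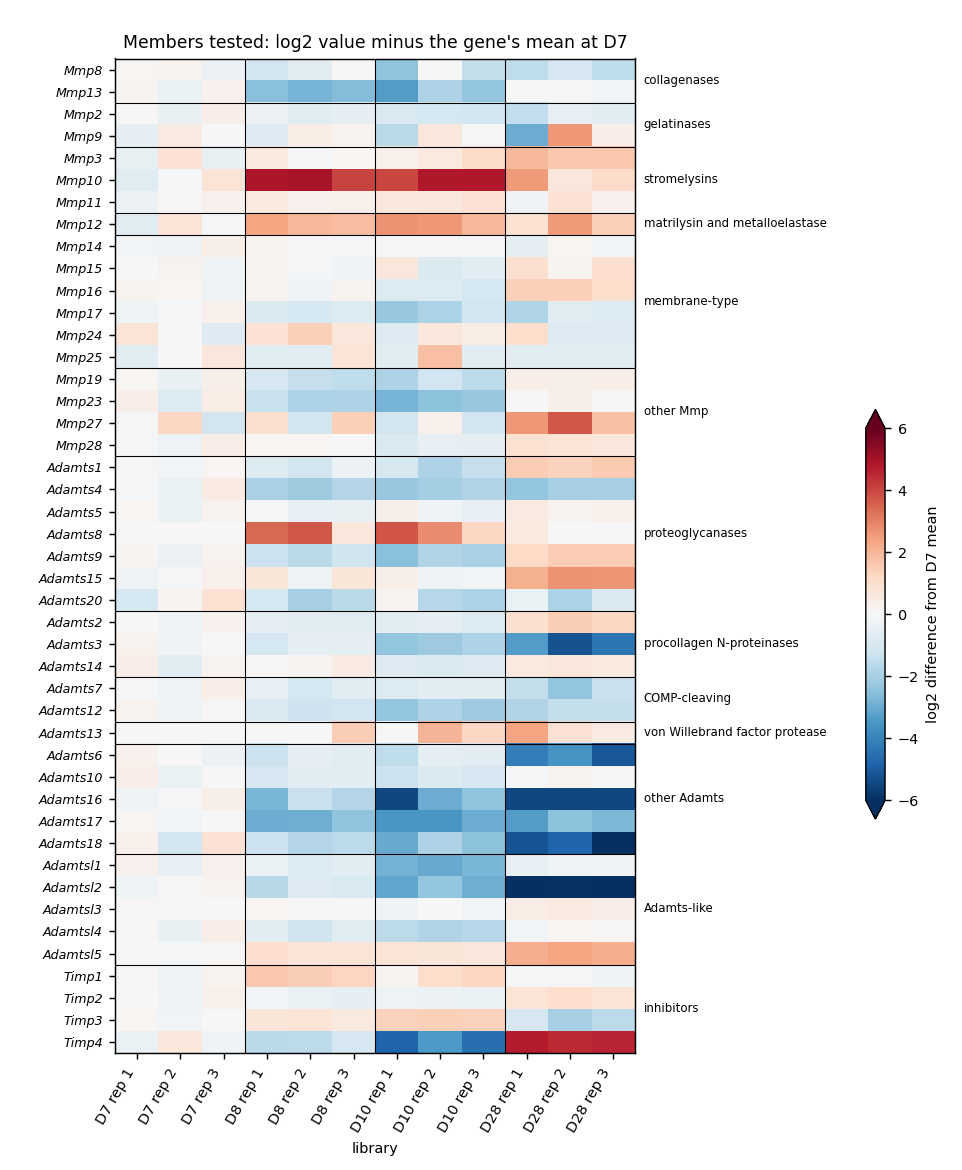
Heat map of the 45 tested genes (rows, grouped by role) in the 12 libraries (columns), coloured by the log2 value minus the gene's own mean at D7, from blue (lower) to red (higher) and saturated at 6. Blue prevails at D10 among the Adamts and Adamts-like genes, Mmp10 is red at D8 and D10, and Timp4 turns from blue at D10 to red at D28.

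The first question is what the move from chondrogenic to osteogenic medium was accompanied by within 1 and 3 days. At D8 against D7, 4 genes were higher and 10 lower (8.89% and 22.2% of the 45 tested), beside 3.23% higher and 3.81% lower, 7.04% in all, among all genes tested. At D10 against D8 no member was higher in limma, nor by the study's own rule of a log2 difference of 1 and a per-gene p under 0.05, with 1 higher at an unadjusted p under 0.05 in limma, and 6 were lower (13.3%), beside 4.08% higher, 5.58% lower and 9.66% in all. At D10 against D7, 4 were higher and 18 lower (8.89% and 40%), where 8.5% of all genes were higher and 10.4% lower, 18.9% in all. The median log2 fold change of the tested members was -0.52 at D8 and -0.80 at D10 relative to D7, and that of all genes 0.03 and 0.05. The falls were spread over the families: 5 of 18 tested Mmp genes, 9 of 18 Adamts genes, 3 of 5 Adamtsl genes and 1 of 4 Timp genes were lower at D10 than at D7. Endothelial markers moved over these times too: the summed level of 5 such genes on the log2 scale ranged from 4.23 to 5.52 at D7, 5.89 to 7.75 at D8, 4.04 to 6.65 at D10 and 4.39 to 5.09 at D28, and 2 of the 5 (Pecam1 and Kdr) were called higher at D8 than at D7. Their part in the rises at D8 was not tested. Adamts8 reached a log2 value of 1 only in D8 and D10 libraries, so it was tested because it was high there.

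After 21 days in osteogenic medium the direction was another. At D28 against D10, 18 members were higher and 8 lower (40% and 17.8%), beside 13.8% higher and 13.7% lower, 27.5% in all, of all genes. Marker genes moved in the same comparison, with 5 of 5 adipocyte genes, 4 of 8 chondrocyte genes (Acan, Comp, Hapln1 and Matn3) and 4 of 8 osteoblast genes (Alpl, Bglap, Ibsp and Sp7) higher and Col10a1 of the chondrocyte list lower, and their part in the members' rises was not tested. At D28 against D7, 11 were higher and 11 lower (24.4% each), beside 8.63% higher and 8.66% lower, 17.3% in all. The median of the tested members was 0.49 against D10 and 0.00 against D7, and that of all genes -0.10 and -0.03. These comparisons share libraries with each other, the D10 libraries above all, so a gene that is low at D10 enters both as a fall and as a rise, and the values of each comparison are given side by side below.

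The collagenases are the enzymes that open the triple helix of fibrillar collagen, and Mmp13 was the only abundant one of the 4. Mmp13 (chr9:7272514-7283331) stood at 15.66, 15.09 and 15.79 at D7 and 13.02, 12.71 and 12.89 at D8, followed by 12.17, 13.68 and 13.16 at D10 and 15.51, 15.52 and 15.34 at D28. All 6 libraries of D8 and D10 lay below all 6 of D7 and D28. The log2 fold change was -2.64 ± 0.28 (SE) at D8 against D7, a 6.23-fold fall (adjusted p = 1.5e-05, limma), and -2.51 ± 0.28 at D10 against D7 (adjusted p = 3.7e-06, limma). It was 2.45 ± 0.28 at D28 against D10 (adjusted p = 2.6e-06, limma), and D28 differed from D7 by -0.06, with a 95% interval from -0.65 to 0.54. Mmp8, the neutrophil collagenase, had values from 1.81 to 4.43 and was not called in limma over all libraries. Its D28 libraries lay below its D7 libraries (-1.37 ± 0.55, adjusted p = 0.062, limma), and the difference was called when only these groups were fitted (adjusted p = 0.022, limma) and with low values raised to the 3-read level (-1.24, adjusted p = 0.041, limma). At D10 against D7 it was called without D10 replicate 2 (-1.92, adjusted p = 0.0083, limma). The summed level of 5 neutrophil genes ranged from 3.55 to 4.07 at D7, 2.39 to 3.83 at D8, 2.44 to 4.31 at D10 and 3.09 to 3.52 at D28, with Ly6g at 0 in all libraries and S100a8 at up to 4.19. Their part in the values of Mmp8 was not tested.

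Among the gelatinases, which digest denatured collagen, Mmp2 was abundant and Mmp9 was not. Mmp2 stood at 15.01, 14.57 and 15.43 at D7 and at 14.08, 13.94 and 13.84 at D10, a log2 fold change of -1.05 ± 0.24 (adjusted p = 0.0022, limma) that is just past the threshold. At D8 the values were 14.64, 14.35 and 14.47 and at D28 13.51, 14.50 and 14.40, with no call in the comparisons that involve these. The D28 difference from D7 of -0.87 was called without D7 replicate 2 (-1.08, adjusted p = 0.0028, limma) and without D28 replicate 2 (-1.05, adjusted p = 0.0065, limma). Without D7 replicate 3 the D10 difference was -0.84, and without D10 replicate 3 it was -0.99, under the threshold in both.

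Mmp9 had the largest standard error of the tested members. It stood at 3.93, 5.01 and 4.49 at D7 and 3.71, 4.92 and 4.67 at D8, followed by 2.87, 5.18 and 4.42 at D10 and 1.50, 7.07 and 4.87 at D28. The D28 libraries enclose all others, from the lowest to the highest value of the series, and the SE of each difference was 0.98, so no difference was detectable in limma (adjusted p = 0.81 at D28 against D10). Without D28 replicate 1 the difference at D28 against D10 was 1.81 (adjusted p = 0.046, limma). All 9 macrophage and osteoclast genes of the list had their highest D28 value in the same library, replicate 2, and for 6 of the 9 it was the highest of all 12 libraries. Csf1r, the receptor of the macrophage growth factor, stood at 4.72, 7.92 and 5.13 in the D28 libraries. Adgre1, which encodes F4/80, stood at 4.75, 7.49 and 5.36 there, and Lyz2, the macrophage lysozyme, at 9.26, 11.8 and 9.49. At D28 against D10, 4 of the 9 were called higher (Adgre1, Csf1r, Lyz2 and Tyrobp) and 2 lower, Cd68 by 1.09 and Ctsk by 1.12 on the log2 scale (adjusted p = 0.0059 and 9.7e-06, limma). The summed level of the 9 macrophage and osteoclast genes ranged from 12.5 to 12.8 at D7, 12.9 to 13.4 at D8, 13.7 to 13.8 at D10 and 12.6 to 13.5 at D28. This sum is set mostly by Ctsk, at 12.17 to 13.65, and at D10, where it is highest, Adgre1, Csf1r, Lyz2 and Tyrobp had their lowest means (2.80, 3.29, 8.73 and 4.15). The part of these 9 genes' cells in the values of Mmp9 was not tested.

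**Figure D2:**
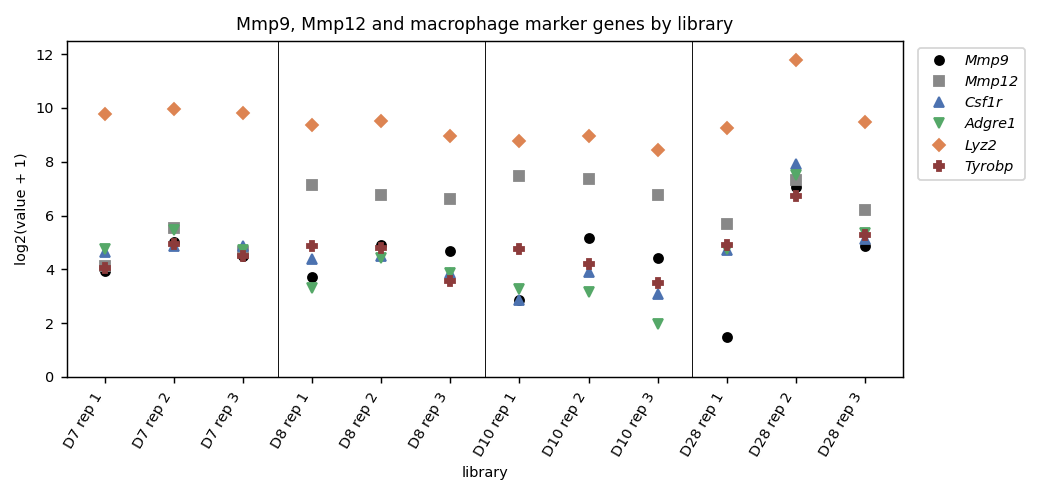
Log2 values (vertical axis) of Mmp9, Mmp12 and 4 macrophage genes in each of the 12 libraries (horizontal axis), with 1 point per gene and library. In D28 replicate 2, Mmp9 (7.07), Csf1r (7.92), Adgre1 (7.49), Lyz2 (11.8) and Tyrobp (6.71) are each at their highest, while Mmp12 is as high in D10 libraries.

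Stromelysins cut proteoglycans and non-collagen matrix proteins and can activate other Mmp precursors. Mmp10 (stromelysin 2, chr9:7502352-7510240) had at most 3 reads in every D7 library, at 0.94, 1.54 and 2.46. It stood at 6.51, 6.60 and 5.72 at D8 and at 5.68, 6.45 and 6.47 at D10, a rise of at least 10.6-fold and at least 10-fold over D7 (adjusted p = 2.1e-05 and 4.6e-06, limma). At D28 the values were 4.20, 2.32 and 2.82, a log2 fold change of -3.09 ± 0.52 from D10 (adjusted p = 0.00012, limma). The remaining excess over D7 rests on few reads: the D28 and D7 libraries overlap, the bound is 1.36-fold, and with the replicate number as a block the adjusted p was 0.051. Mmp3 (stromelysin 1) went from 7.90, 9.24 and 7.93 at D7 and 8.66, 8.94 and 9.49 at D10 to 10.30, 9.98 and 9.97 at D28. Its log2 fold change was 1.73 ± 0.30 at D28 against D7 (adjusted p = 0.00032, limma) and 1.06 ± 0.30 against D10 (adjusted p = 0.0082, limma). At D10 against D7 the difference of 0.67 was not called, but it was called without D7 replicate 2 (1.11, adjusted p = 0.0014, limma). Without D10 replicate 1 the D28 difference from D10 was 0.87 and without D28 replicate 1 it was 0.95, both under the threshold. Mmp11 ranged from 8.61 to 9.85 and was not called.

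Mmp12, the macrophage metalloelastase, rose with Mmp10. It stood at 4.14, 5.54 and 4.64 at D7 and 7.12, 6.76 and 6.62 at D8, followed by 7.48, 7.37 and 6.78 at D10 and 5.68, 7.34 and 6.22 at D28. The log2 fold changes were 2.07 ± 0.40 at D8, 2.44 ± 0.40 at D10 and 1.64 ± 0.40 at D28, each against D7 (adjusted p = 0.0019, 0.00017 and 0.0044, limma). The call at D28 was lost by the study's own rule (unadjusted p = 0.061) and with only the D7 and D28 libraries fitted (adjusted p = 0.05, limma). Every D8, D10 and D28 library was above every D7 library. At D28 against D10 the difference of -0.80 was not called, and without D28 replicate 2 it was -1.26 (adjusted p = 0.014, limma). None of the 9 macrophage and osteoclast genes was called at D8 against D7 in limma (2 higher and 0 lower at an unadjusted p under 0.05). Cd68 and Ctsk differed by 0.96 and 0.69 there (adjusted p = 0.03 and 0.0031, limma), under the fold threshold, and were called higher at D10 than at D7 (1.88 and 1.31), where Adgre1 was called lower. The summed level of the 9 genes was 12.9 to 13.4 in the D8 libraries and 12.5 to 12.8 in the D7 libraries. Their part in the rise of Mmp12 was not tested.

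**Figure D3:**
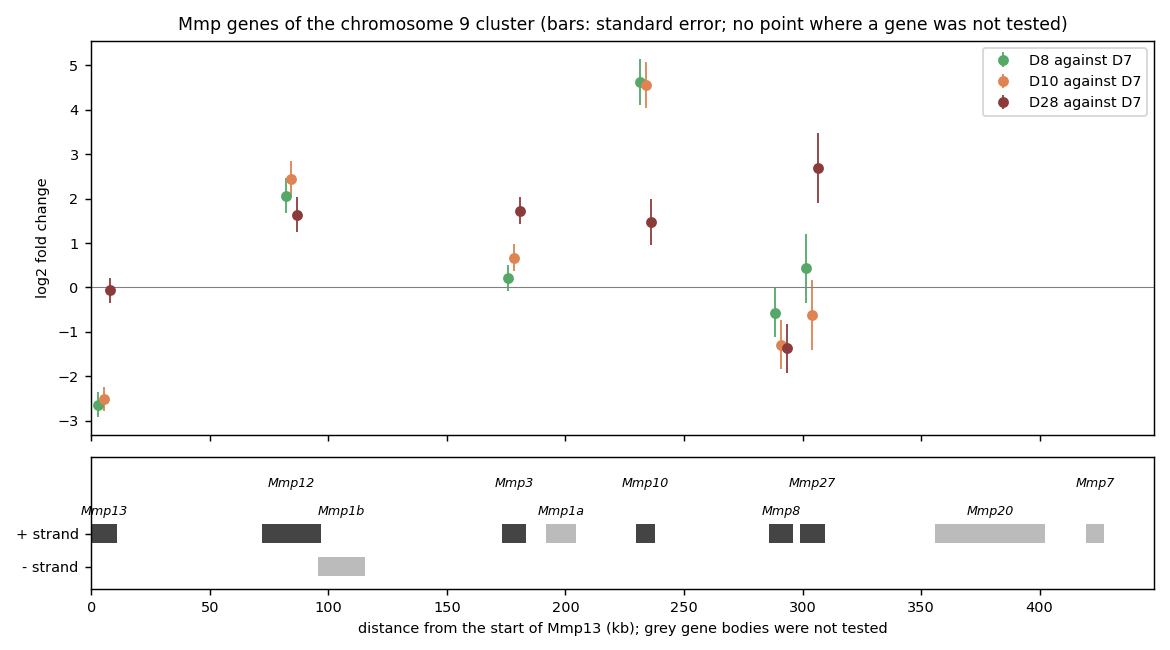
Log2 fold change against D7 (upper panel, vertical axis, with standard errors) of the Mmp genes of the chromosome 9 cluster at D8, D10 and D28, placed by their distance in kb from the start of Mmp13, with gene bodies by strand in the lower panel and untested genes in grey. Mmp13 lies at -2.64 and -2.51 at D8 and D10. Mmp12 and Mmp10 lie above 2 at these times and at 1.64 and 1.47 at D28. Mmp3 and Mmp27 are called higher than D7 at D28 only, Mmp27 on a few reads.

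Within the chromosome 9 cluster, then, Mmp13 at one end fell at D8 when Mmp12 and Mmp10 rose, and all 3 promoters carry TGANTCA within 63 bases of the start. Mmp27 stood at 0.94, 2.30 and 0 at D7, at 2.03, 0 and 2.50 at D8, at 0, 1.37 and 0 at D10 and, in the D28 libraries, at 3.70, 4.79 and 2.82. Its log2 fold change of 3.32 ± 0.78 against D10 passed the test (adjusted p = 0.0022, limma), but with low values raised to the 3-read level it was 0.92 with an adjusted p of 0.073. Its difference of 2.69 at D28 against D7 was called too, but not without D7 replicate 3 (adjusted p = 0.063, limma), without D28 replicate 2 (adjusted p = 0.072, limma) or at the 3-read level (0.92, adjusted p = 0.093, limma). Part of the Mmp12 gene overlaps Mmp1b on the opposite strand, and Mmp1b was at 0 in 11 of the 12 libraries.

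Membrane-type Mmp enzymes work at the cell surface. Mmp14 (chr14:54431612-54445364) was abundant and not called, with 13.61, 13.57 and 14.10 at D7, 13.94, 13.66 and 13.64 at D8, 13.69, 13.72 and 13.63 at D10 and 13.23, 13.90 and 13.58 at D28. Its differences lay between -0.19 and -0.01 with an SE of 0.17, and the 95% interval of the D28 difference from D7 was -0.55 to 0.17. Mmp16, the third membrane-type enzyme, was higher at D28 (9.23, 9.24 and 8.87) than at D10 (7.00, 7.02 and 6.75), by 2.19 ± 0.18 (adjusted p = 1e-07, limma), and than at D7 (8.04, 7.94 and 7.50), by 1.29 ± 0.18 (adjusted p = 4.9e-05, limma). Mmp17 fell from 6.47, 6.62 and 7.03 at D7 to 4.45, 4.81 and 5.61 at D10, by 1.75 on the log2 scale (adjusted p = 0.00086, limma). Mmp15, Mmp24 and Mmp25 were not called, and the last 2 had at most 2.50. Mmp15 was called higher at D28 than at D10 under median of ratios scaling (1.10, adjusted p = 0.028, limma), without D10 replicate 1 (1.45) and without D28 replicate 2 (1.24).

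Of the other Mmp genes tested, all 4 were called higher at D28 than at D10, beside 13.8% of all genes. The call of Mmp27 was not kept with low values raised to the 3-read level. Mmp23 stood at 9.86, 8.68 and 9.91 at D7, at 6.70, 7.02 and 7.21 at D10 and at 9.48, 9.82 and 9.52 at D28, with -2.51 ± 0.27 at D10 against D7 and 2.63 ± 0.27 at D28 against D10 (adjusted p = 2.5e-06 and 8.1e-07, limma). Mmp19 had the same order, with -1.53 ± 0.20 and 1.91 ± 0.20 in these comparisons (adjusted p = 2.3e-05 and 1.4e-06, limma). For both genes D28 and D7 overlapped. Mmp28, or epilysin, stood at 9.15, 9.05 and 8.89 at D28 and at 7.35, 7.73 and 7.68 at D10, a log2 fold change of 1.45 ± 0.17 (adjusted p = 4.3e-06, limma).

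**Figure D4:**
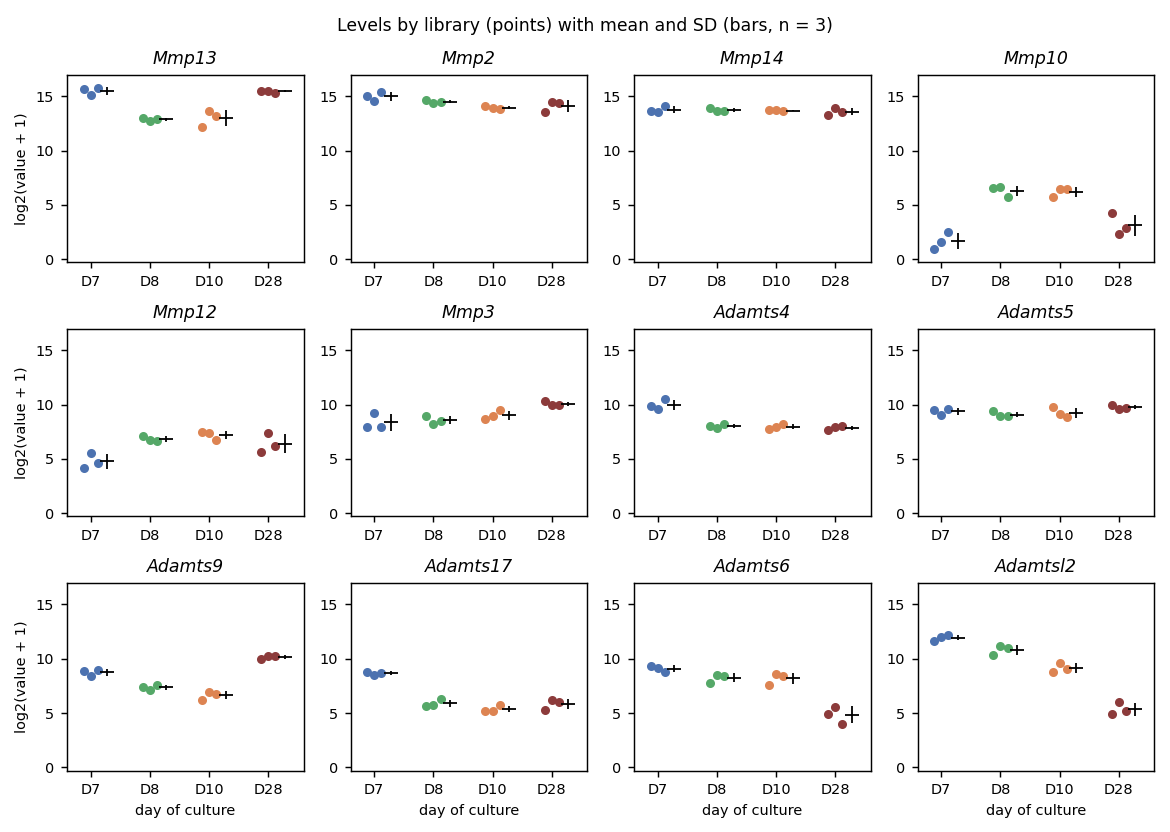
Log2 values (vertical axes) of 12 members by day of culture (horizontal axes), with coloured points for the 3 libraries and black bars for the mean and SD. Mmp13 is low at D8 and D10 only, Adamts4 and Adamts17 stay low from D8, Mmp14 and Adamts5 were not called, and Adamts6 and Adamtsl2 are lowest at D28.

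The proteoglycanases of the ADAMTS family cut aggrecan, versican and related proteoglycans, and of the 2 best-known aggrecanases Adamts4 was called and Adamts5 was not. Adamts4 (chr1:171250421-171260637) stood at 9.90, 9.59 and 10.49 at D7 and 8.03, 7.87 and 8.21 at D8, followed by 7.71, 7.97 and 8.19 at D10 and 7.68, 7.98 and 8.01 at D28. All 9 libraries in osteogenic medium were below the D7 libraries, and the log2 fold change was -1.96, -2.04 and -2.10, each ± 0.20, at D8, D10 and D28 against D7 (adjusted p = 1.3e-05, 1.2e-06 and 9.6e-07, limma). Adamts5 (chr16:85856173-85901828) stood at 9.53, 9.01 and 9.62 at D7 and 9.37, 8.92 and 8.94 at D8, followed by 9.76, 9.11 and 8.88 at D10 and 9.95, 9.58 and 9.70 at D28, and was not called. Its difference at D28 against D7 was 0.36, with a 95% interval from -0.09 to 0.81. Their genes' responses were not tested against each other.

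Adamts1, Adamts9 and Adamts15 ended higher than they began. Adamts9 stood at 8.90, 8.40 and 8.93 at D7, at 7.43, 7.10 and 7.55 on D8, at 6.22, 6.93 and 6.79 at D10 and at 9.95, 10.24 and 10.26 at D28. It was lower by 2.09 at D10 than at D7 (adjusted p = 9.3e-07, limma) and 11.3-fold higher at D28 than at D10 (3.50 ± 0.20, adjusted p = 1.7e-09, limma). Adamts1 followed the same order at 11.04, 10.77 and 11.05, then 9.97, 9.08 and 9.56, then 12.46, 12.33 and 12.53, with 2.90 ± 0.20 at D28 against D10 (adjusted p = 1.1e-08, limma). Adamts15 differed by -0.03 at D10 against D7, with a 95% interval from -0.56 to 0.51, and rose at D28 to 10.42, 10.98 and 10.91, by 2.50 ± 0.25 over D7 (adjusted p = 1.5e-06, limma). Adamts8 was at 0 in all D7 libraries and stood at 3.45, 3.71 and 0.66 at D8 and at 3.76, 2.84 and 1.22 at D10, with 0.58, 0 and 0 at D28. The bound is 1.38-fold at D8 and 1.23-fold at D10, and no call for it was kept with low values raised to the 3-read level. Adamts20 was not called, except as lower at D10 than at D7 without D10 replicate 1 (-1.80, adjusted p = 0.045, limma).

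Of the 3 procollagen N-proteinases, Adamts2 and Adamts14 were higher and Adamts3 lower at D28 than at D10, and no test between the genes was run. Adamts2, which trims the procollagens of types I and III, stood at 11.20, 10.92 and 11.44 at D7, at 10.50, 10.59 and 10.39 at D10 and at 12.14, 12.66 and 12.45 at D28, a rise of 1.92 ± 0.14 over D10 (adjusted p = 2.6e-08, limma). Adamts14 stood at 8.45, 7.44 and 8.28 at D7, at 8.13, 8.24 and 8.53 at D8, at 7.31, 7.18 and 7.28 on D10 and at 8.66, 8.74 and 8.64 at D28, a rise of 1.42 ± 0.21 over D10 (adjusted p = 3.7e-05, limma). At D10 against D8 it was lower by 1.04 (adjusted p = 0.0019, limma), and without D8 replicate 3 by 0.93, under the threshold. Adamts3, the N-proteinase best known for type II procollagen and for processing VEGF-C, had a lower mean at each later time, from 8.48, 8.08 and 8.27 at D7 through 7.23, 7.71 and 7.68 at D8 and 5.93, 6.12 and 6.45 at D10 to 4.95, 3.07 and 3.95 at D28. The step from D7 to D8 (-0.74, adjusted p = 0.16, limma) was not called. Its log2 fold change at D28 against D7 was -4.29 ± 0.36, a 19.6-fold fall (adjusted p = 2.1e-07, limma). The type II collagen gene Col2a1 had the same mean at D28 as at D7, 20.92, which is the highest value of any library. While it holds that value, a difference in it cannot be seen on this scale. At D10, where Fn1 stood at 20.92, Col2a1 stood at 19.87 in all libraries.

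Both COMP-cleaving enzymes, named for the cartilage oligomeric matrix protein that they degrade, were lower at D28 than at D7. Adamts12 had fallen by 1.12 at D8 and by 2.13 at D10 and stood 1.56 below D7 at D28 (log2 fold change -1.56 ± 0.16, adjusted p = 1.7e-06, limma). Adamts7 stood at 6.49, 6.24 and 6.95 at D7 and at 5.15, 4.19 and 5.24 at D28, with -1.70 ± 0.31 (adjusted p = 0.00049, limma). Adamts13, the protease of von Willebrand factor, had at most 2.39 and was not called.

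Most of the other ADAMTS proteinases also fell, and 4 of the 5 tested were lower at D28 than at D7, beside 8.66% of all genes. Adamts17 stood at 8.82, 8.53 and 8.70 at D7 and 5.69, 5.74 and 6.28 at D8, followed by 5.19, 5.18 and 5.72 at D10 and 5.31, 6.24 and 6.00 at D28. It had thus fallen by 2.78 (6.86-fold) within 1 day (adjusted p = 7.6e-06, limma), and D28 was still 2.83 below D7 (log2 fold change -2.83 ± 0.27, adjusted p = 9.5e-07, limma). Adamts6 went from 9.36, 9.12 and 8.75 at D7, 7.78, 8.51 and 8.44 at D8 and 7.57, 8.56 and 8.42 at D10 to 4.95, 5.55 and 4.00 at D28 (-3.35 ± 0.35 against D10, adjusted p = 9.2e-07, limma). Adamts18 went from 6.59, 5.13 and 7.15 at D7 through 5.01, 4.51 and 4.73 at D8 and 3.26, 4.42 and 3.82 at D10 to 1.12, 1.54 and 0.00 at D28, at most 3 reads per library and at least 10.7-fold lower than at D7 (adjusted p = 1.5e-06, limma). Adamts16 went from 5.27, 5.38 and 5.81 at D7 through 2.73, 4.16 and 3.71 at D8 and 0, 2.50 and 3.07 at D10 to 0 in all D28 libraries, at least 6.1-fold lower than D7 (adjusted p = 1e-05, limma). The D8 step (-1.95, adjusted p = 0.049, limma) lost its call when any 1 of the 6 D7 and D8 libraries was left out (adjusted p from 0.058 to 0.19, limma) and with no filter on low values (adjusted p = 0.065, limma). Its D28 libraries overlap those of D10, with a bound of 1.05-fold, and that step was not called without D10 replicate 2, D10 replicate 3 or any 1 of the D28 libraries (adjusted p from 0.058 to 0.15, limma). Adamts10, an enzyme of the fibrillin network, was the exception, lower at D10 than at D7 by 1.05 and higher at D28 than at D10 by 1.04. Without D10 replicate 1 these were -0.93 and 0.92, without D7 replicate 1 the former was -0.85, and without D28 replicate 2 the latter was 0.95, all under the threshold.

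ADAMTS-like proteins bind to microfibrils and have no catalytic domain. Adamtsl2 (chr2:27079379-27108981), which binds fibrillin and the latent TGF-beta complex, showed the largest fall at D28 against D7 among the members whose D28 level was above 3 reads. It stood at 11.67, 12.02 and 12.16 at D7 and 10.30, 11.19 and 11.02 at D8, followed by 8.81, 9.63 and 9.03 at D10 and 4.88, 6.04 and 5.15 at D28. Each time point lay wholly below the one before it, and the fall from D7 to D28 was 6.59 ± 0.29 on the log2 scale, 96.5-fold (adjusted p = 2.8e-10, limma). The D8 step alone was -1.11 ± 0.29 and was not called without D8 replicate 1 (-0.85, adjusted p = 0.072, limma). Adamtsl5 went the other way, from 8.62, 8.46 and 8.65 at D7 to 10.74, 10.93 and 10.74 at D28, a rise of 2.22 ± 0.11 (adjusted p = 1.1e-09, limma). Adamtsl1 stood at 8.22, 7.48 and 8.21 at D7, at 7.57, 7.15 and 7.34 at D8, at 5.12, 4.95 and 5.25 on D10 and at 7.46, 7.70 and 7.76 at D28, and its step from D8 to D10 was -2.25 ± 0.22 (adjusted p = 6.5e-06, limma). Adamtsl1 and Adamtsl4 were lower at D10 than at D7, by 2.86 and 1.71 (adjusted p = 1e-07 and 2.7e-06, limma), higher at D28 than at D10 by 2.53 ± 0.22 and 1.71 ± 0.18 (adjusted p = 1.6e-07 and 1.4e-06, limma), and at D28 overlapped D7. Adamtsl3 ranged from 10.15 to 10.89 and was not called.

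Markers of muscle, a tissue that borders the dissected bone ends, fell over the same times as Adamtsl2, Adamts3, Adamts16 and Adamts18, the members called lower at D10 than at D7 and lower again at D28 than at D10, with the last steps of Adamts16 and Adamts18 at few reads. At D28 against D10 the bound is 1.05-fold for Adamts16 and 1.94-fold for Adamts18, and neither call was kept with low values raised to the 3-read level (-0.96, adjusted p = 0.13 for Adamts18, limma). The summed level of 5 muscle genes ranged from 11.3 to 11.7 at D7, 9.57 to 10.4 at D8, 8.05 to 8.64 at D10 and 5.75 to 7.1 at D28, and all 5 genes were lower at D28 than at D7. Myog, the myogenic factor myogenin, stood at 7.58, 7.93 and 7.29 at D7 and at 1.12, 1.84 and 1.06 at D28. The part of these cells in the falls of these 4 members was not tested.

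The inhibitors followed 4 separate courses. Timp4 (chr6:115241892-115252205) had the widest range of all members. It stood at 8.68, 9.74 and 8.88 at D7 and 7.48, 7.54 and 8.07 at D8, followed by 4.31, 5.64 and 4.57 at D10 and 13.79, 13.58 and 13.69 at D28. No time point overlapped another. The log2 fold change was -1.40 ± 0.30 at D8 against D7 (adjusted p = 0.0039, limma), -2.86 ± 0.30 at D10 against D8 (adjusted p = 1.3e-05, limma) and 8.84 ± 0.30, or 459-fold, at D28 against D10 (adjusted p = 7.7e-12, limma). D28 was 24-fold above D7 (4.59 ± 0.30, adjusted p = 2.1e-08, limma).

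Timp3, the inhibitor that stays bound to the matrix, took the opposite course. It rose from 15.52, 15.23 and 15.44 at D7 through 16.13, 16.22 and 16.00 at D8 to 16.76, 16.82 and 16.76 at D10, and then stood at 14.37, 13.40 and 13.82 at D28. The log2 fold change was 1.38 ± 0.20 at D10 against D7 and -2.92 ± 0.20 at D28 against D10 (adjusted p = 5.8e-05 and 1.3e-08, limma). Timp1, a soluble inhibitor induced in many cell types by growth factors, was highest at D8, with 14.14, 14.00 and 13.82 against 12.57, 12.25 and 12.74 at D7 (1.47 ± 0.21, adjusted p = 0.0002, limma). At D10 it stood at 12.67, 13.56 and 13.79 and at D28 at 12.43, 12.40 and 12.28. Its D10 differences from D7 (0.82) and D28 (-0.97 at D28 against D10) were under the threshold and passed it without D10 replicate 1, at 1.16 and -1.31, and the latter passed it without D28 replicate 1 also. Timp2, which also takes part in the activation of MMP2 by MMP14, stood at 13.90, 13.70 and 14.23 at D7 and at 13.79, 13.56 and 13.35 at D8. It was highest at D28, with 14.76, 14.97 and 14.76 against 13.62, 13.61 and 13.54 at D10 (1.24 ± 0.15, adjusted p = 3.9e-06, limma).

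Each of Timp1, Timp3 and Timp4 lies within a synapsin gene, on the opposite strand (Syn1, Syn3 and Syn2). The library kit keeps the strand, but the strand setting of the counting is not given in the sources used here, so reads of the pairs may have been shared. Syn2 stood at 5.97, 7.02 and 6.44 at D7, at 3.98, 4.19 and 1.97 at D10 and at 7.39, 7.11 and 7.12 at D28. Beside it, Timp4 stood at 4.31, 5.64 and 4.57 at D10 and at 13.79, 13.58 and 13.69 at D28. Syn1 stood at 4.80, 5.16 and 5.39 at D7 and at 7.77, 8.01 and 7.61 at D8, then at 7.80, 8.34 and 8.51 on D10 and at 6.47, 6.20 and 5.89 on D28. At D8 against D7 both Syn1 and Timp1 were called higher, by 2.68 and 1.47 (adjusted p = 3.8e-06 and 0.0002, limma). At D10 against D8 the difference was 0.42 for Syn1 and -0.65 for Timp1, neither called. Syn2 and Timp4 were both called lower there, at -2.23 and -2.86 (adjusted p = 0.0032 and 1.3e-05, limma). Syn3 never exceeded 6.10 and Timp3 never fell below 13.40, and from D10 to D28 their means went from 5.24 to 3.68 and from 16.78 to 13.86. Whether reads were shared was not tested.

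Markers of fat cells moved with Timp4, Adamts1 and Adamts9, the 3 members called lower at D10 than at D7 and higher at D28 than at both. The summed level of 5 adipocyte genes ranged from 11.9 to 12.1 at D7, 10.7 to 11.2 at D8, 9.71 to 10.4 at D10 and 15.3 to 15.7 at D28, and all 5 were lower at D10 than at D7 and higher at D28 than at D10 and D7. Adipoq, the fat cell hormone adiponectin, stood at 6.65, 7.67 and 6.86 at D7, at 4.16, 3.58 and 4.31 at D10 and at 12.30, 12.45 and 12.74 at D28. The part of these cells in the rises of these 3 members was not tested.

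To compare levels between genes, the unlogged deposited value was divided by the length in kilobases of the longest protein-coding transcript of the basic annotation. On this scale Timp3 and Timp1 made up most of the inhibitor transcripts until D10. Timp3 held 45.4% ± 2.94 (SD, n = 3) of the summed inhibitor level at D7 and 41.0% ± 2.17 at D8, and then 60.8% ± 6.97 at D10 and 16.7% ± 4.84 at D28. Timp1 held 33.0% ± 1.44, 50.0% ± 1.57, 30.6% ± 8.20 and 30.7% ± 0.929 at these times. Timp2 went from 21.1% ± 1.79 at D7 to 8.90% ± 0.640 at D8 and 40.3% ± 4.43 at D28. Timp4 went from 0.542% ± 0.304 at D7 to 0.0137% ± 0.00665 at D10 and 12.3% ± 0.721 at D28. The order of Timp1 and Timp3 at D7 depends on the length: with the union of all exons Timp1 held 41.1% and Timp3 33.0% there. With that length Timp1 was also above Timp3 in D10 replicate 3 (48.8% and 41.8%), and Timp3 held 10.8% at D28.

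Summed on the per-kilobase scale, the 4 inhibitor genes came to 21026, 17383 and 22436 at D7, 39507, 38002 and 33159 at D8, 34299, 41574 and 42729 at D10 and 20735, 19290 and 18543 at D28. The 23 Mmp genes came to 35352, 25986 and 42515 at D7, 17470, 14180 and 15113 at D8, 12314, 15248 and 13264 at D10 and 26239, 32201 and 28288 at D28. The Mmp sum was thus higher than the inhibitor sum in every D7 and D28 library and lower in every D8 and D10 library. The same order was found with the union of exons as the length, although that length moved many of the sums and shares themselves. These are transcript sums in which a few abundant genes weigh most: Mmp13 held 51.6% of the Mmp sum at D7 and 58.7% at D28, but 18.1% at D8 and 24.0% at D10. In the order D7, D8, D10 and D28, Mmp2 held 31.5%, 48.0%, 38.3% and 20.9%, and Mmp14 12.7%, 27.4%, 30.0% and 13.1%. No protein or enzyme activity was measured.

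Beside the members stand 3 lists of genes that work with them. Of 13 activators, clearance receptors and other inhibitors, none was higher in limma (3 at an unadjusted p under 0.05) and 7 were lower (53.8%) at D10 than at D7, beside 10.4% of all genes lower. At D28 against D10, 4 were higher (30.8%) and 1 lower (7.69%), beside 13.8% and 13.7% of all genes. A2m, the general proteinase inhibitor alpha-2-macroglobulin, stood at 10.87, 11.32 and 10.97 at D7, at 7.09, 7.64 and 7.22 at D10 and at 13.02, 13.37 and 13.64 at D28 (6.03 at D28 against D10, adjusted p = 7.7e-12, limma). Reck, a membrane-anchored Mmp inhibitor, was lower at D10 than at D7 by 1.32 and higher at D28 than at D10 by 1.76 (adjusted p = 1.8e-06 and 4.1e-08, limma). The proprotein convertase gene Pcsk6 was lower at D10 by 2.52 (adjusted p = 2.5e-06, limma), and Furin, whose product removes the propeptide of membrane-type and ADAMTS enzymes, by 1.16 (adjusted p = 1e-05, limma).

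Of 13 other enzymes of the metzincin group, 1 was higher (7.69%) and 4 were lower (30.8%) at D10 than at D7, beside 8.5% and 10.4% of all genes. At D28 against D10, 3 were higher (23.1%) and 2 lower (15.4%), beside 13.8% and 13.7% of all genes. Of these 3, Tll2 was tested because it was high at D28: it was at 0 in all D7 and D10 libraries and at 2.39, 1.54 and 2.44 at D28. These lie under 2.87, the highest 3-read level of any library, so that its bound is 1-fold. In reads, 1 of the D28 libraries had at most 3, and no library had more than 7. Bmp1, the procollagen C-proteinase, was lower at D10 than at D7 by 1.61 and higher at D28 than at D10 by 1.16 (adjusted p = 1.2e-05 and 0.00017, limma). Adam19 was the only one higher at D10 (1.25, adjusted p = 1.4e-05, limma). Among 14 substrates none was higher in limma (1 at an unadjusted p under 0.05) and 10 were lower (71.4%) at D10 than at D7, beside 10.4% of all genes. At D28 against D10, 4 substrates were higher (28.6%, Acan, Comp, Dcn and Matn3) and 3 lower (21.4%), beside 13.8% and 13.7% of all genes. At D28 against D7 none was higher (0 at an unadjusted p under 0.05, limma) and 7 were lower (50%), beside 8.66% of all genes. The elastin gene Eln had a log2 fold change of -7.44 at D28 against D7 and the fibrillin gene Fbn2 of -4.29 (adjusted p = 1.7e-12 and 3.1e-10, limma), while Fbn1 differed by 0.22 (adjusted p = 0.21, limma). The aggrecan gene Acan was lower at D10 than at D7 by 1.17 and higher at D28 than at D10 by 1.35 (adjusted p = 0.0077 and 0.0021, limma).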

How the data were processed

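RNA-seq values of 12 libraries (D7, D8, D10 and D28, 3 replicates each) were used as the authors deposited them, as 1 log2 value per gene symbol and library. According to the supplementary methods and processing notes, reads were trimmed with Trimmomatic 0.36, aligned with HISAT2, annotated with Cufflinks and counted with HTSeq, and counts were equalized and transformed as log2 of the value plus 1. The methods name hg38, while the processing notes name GRCm38 and the symbols are those of mouse. Equalization removes library totals and leaves nearly the same set of values in each library. The test was limma 3.58.1 in R 4.3.3 with a variance trend over all libraries (residual degrees of freedom 8, prior 7.23), tested on simulated data, with two-sided p-values adjusted by Benjamini-Hochberg. Of 28244 genes, 7935 were at 0 throughout and 2635 more failed the filter. Values in full are given for the 5 largest called changes of each comparison without overlap of libraries, and for Mmp2, Mmp9, Mmp13, Mmp14, Adamts4, Adamts5 and the Timp genes, and other members were added after their values were seen. Members and lists were chosen with earlier results of these data known. Positions, transcript lengths and overlaps are from GENCODE M21 on GRCm38, and promoters from RefSeq on GRCm38.p6, where 36 of the 51 members have one. Alternatives covered the filter, pseudocount, scaling, replicate block, thresholds, a fit of only the groups compared and each library left out. Raising low values to the 3-read level, union exon lengths and median of ratios scaling of the sums were added after seeing the data. No sequencing batch is given. Annotation and figures used Python (3.11.15) and its packages pandas (2.3.3), matplotlib (3.10.9) and numpy (2.4.6).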

Additional observations from a re-analysis of the deposited data

How the results depend on the processing

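None of the 1595 values of named members under alternatives changed sign with its call, 1527 stayed on the same side of the threshold, 53 lost the call and 15 gained one. Under a stricter fold change threshold of 2 on the log2 scale, the members called went from 14 to 5 at D8 against D7, from 6 to 2 at D10 against D8, from 26 to 16 at D28 against D10 and from 22 to 11 at D28 against D7. By the adjusted p alone, 14 were called at D10 against D8. With 1 library left out, the members called ranged from 11 to 14 at D8 against D7, from 5 to 8 at D10 against D8, from 21 to 24 at D10 against D7, from 25 to 28 at D28 against D10 and from 20 to 22 at D28 against D7. With low values raised to the 3-read level the calls of Adamts8, of Mmp27 at D28, of Adamts16 and Adamts18 at D28 against D10, of Mmp10 at D28 against D7 and of Adamtsl2 at D8 against D7 were lost, by the construction of that setting where these rest on a few reads. Mmp12 at D28 against D7 had an adjusted p of 0.05 in limma when only these groups were fitted and was not called. Of 32 sums and shares per kilobase under alternatives, 17 moved by more than 1 SD, with the length in every case: the inhibitor sum became 16176, 30280, 29285 and 17572 at D7, D8, D10 and D28 and the Mmp sum 31388, 12823, 11166 and 26278. Same-numbered replicates did not deviate together (correlations from -0.0583 to 0.0665), so no pairing by number was detectable. With 3 libraries per group this cannot tell whether libraries of the same number share an origin. With a replicate block 14, 6, 22, 26 and 21 members were called at D8 against D7, D10 against D8, D10 against D7, D28 against D10 and D28 against D7, and the one call of a member lost was Mmp10 at D28 against D7 (1.47, adjusted p = 0.051, limma). Scaling by median of ratios moved the median of all genes at D28 against D10 from -0.10 to 0.01. Members with few reads (Adamts8, Adamts13, Adamts20, Mmp24, Mmp25 and Mmp27) are limited by depth. The relative depth was 0.790 to 1.06 at D7, 0.962 to 1.22 at D8, 0.730 to 1.05 at D10 and 1.20 to 1.31 at D28.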
